A study of Canis lupus familiaris with 2 samples.

Results

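Splicing removes introns from pre-mRNA, and the genes described here encode proteins that choose or carry out the cuts. SR proteins, encoded by the SRSF genes, carry RNA recognition motifs and a tail rich in arginine and serine, and typically bind exons and favour their inclusion. Heterogeneous nuclear ribonucleoproteins, encoded by the HNRNP genes, coat nascent transcripts and often act against SR proteins. The SF3A and SF3B proteins are subunits of the U2 small nuclear ribonucleoprotein (snRNP), which recognises the branch point of an intron, and the RBM genes are a mixed set of RNA-binding motif proteins, of which some act in splicing and others in ribosome assembly, RNA decay or translation.

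Members were taken by gene symbol: SRSF followed by a digit, HNRNP, SF3A or SF3B followed by a digit, and RBM followed by a digit. This gave 75 of the 23510 features listed, namely 11 SRSF, 19 HNRNP, 9 SF3 and 36 RBM genes. HNRNPA1 and HNRNPC, which encode abundant hnRNP proteins, are not among these features under those symbols and were not analysed here. Levels are in FPKM, in which the fragments on a gene are divided by its exon length and by the size of the library, so that genes of different length can be compared. Counts and medians of ratios cover the 71 members with more than 1 FPKM in both cultures.

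The RNA came from MDCK cells, an established canine kidney line that forms a columnar epithelium, grown without added drug on a semipermeable membrane in Eagle's medium with serum. The sample labels give day 3 of culture for both. In the control culture the medium stood 2 cm high, and in the pressure-loaded culture it stood 50 cm high, and the values below are given as those at 2 cm and at 50 cm. With 1 culture per medium height there are no replicates, no difference could be set against replicate error, and the ratios below carry no test.

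The epithelial identity of the line was visible in both cultures. All 8 epithelial markers listed were above 1 FPKM, with a summed level of 3800 FPKM at 2 cm and 3619 FPKM at 50 cm, and none lay past 1.2-fold. Of 15 markers of fibroblasts, leukocytes and endothelium, 14 were in the files and 0 exceeded 1 FPKM in both cultures, with summed levels of 0.999 and 0.689 FPKM. The number of reads is not given. Of 574 features detected under 0.1 FPKM in each culture, 215 shared a ratio of 1.0977 to within 0.05%, which is that of 1 read in each. A single read thus counted for 9.77% more FPKM at 50 cm. Depth per gene is otherwise unknown, and no counting interval can be given.

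The genes of these families were nearly level between the cultures. The median ratio of 50-cm over 2-cm FPKM over the 71 members was 1.05 (0.07 on the log2 scale), beside 1.01 (0.01 on the log2 scale) over all 11057 features above 1 FPKM in both cultures. Of the members, 49 were higher and 22 lower in 50-cm-high medium (69.0% higher), where 52.6% of all features were higher. After quantile normalization 42 members were higher (59.2%), where 52.0% of all features were. Rescaling without the 10 highest features moves every ratio by the same log2 amount of -0.0512, and it also left 42 members higher, where 43.8% of all features were. No member above 1 FPKM in both cultures reached 2-fold, a line that 1.67% of all features passed. With a minimum of 0.1 FPKM, HNRNPCL1 passed it on the low side, where 5.50% of 13280 features passed it (229 higher and 501 lower). Past 1.2-fold, 4 members were higher (HNRNPAB, RBM18, RBM28 and RBM38) and 1 was lower (RBM11), against backgrounds of 15.0% of all features higher and 16.9% lower. RBM11 was not past that line after quantile normalization (ratio 0.864) and fell outside a minimum of 5 FPKM. In bulk RNA, fewer cells using a gene and less of its RNA per cell cannot be told apart.

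Most of these genes are well expressed, and the background was different among well-expressed features. Over the 4542 features above 20 FPKM in both cultures, a minimum chosen after the values had been seen, the median log2 ratio was 0.06, 63.4% of features were higher, 15.1% were higher past 1.2-fold and 6.91% were lower past 1.2-fold. Over the 52 members above that minimum, the median log2 ratio was 0.11, 39 were higher, 3 were higher past 1.2-fold and 0 were lower past it. The middle 50% of log2 ratios ran from 0.02 to 0.15 for these members and from -0.06 to 0.19 for all such features. Each member was also set beside the 500 features nearest to it in mean log2 FPKM. The log2 ratio was above the median of those neighbours for 39 of the 71 members. It lay within their middle 50% for 48 members (67.6%), and outside their middle 95% for HNRNPAB and RBM38 alone. A middle 95% leaves some features outside by definition. This range is a spread across genes and not an error of the measurement.

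**Figure D1:**
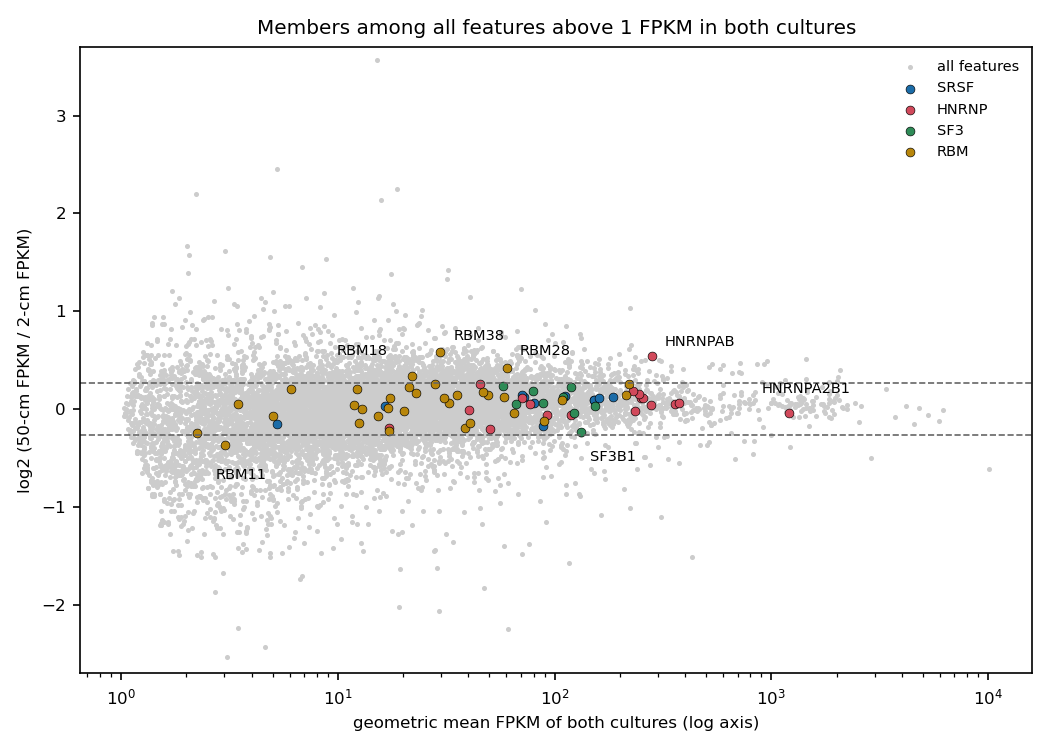
Log2 ratio of 50-cm over 2-cm FPKM (vertical axis) against the geometric mean FPKM of both cultures (horizontal log axis) for all 11057 features above 1 FPKM in both cultures (grey) and the 71 members (coloured by family). Dashed lines mark 1.2-fold, and most members lie between them, with RBM38 and HNRNPAB highest and RBM11 lowest.

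The SRSF ratios spanned a narrow range. All 11 were above 1 FPKM in both cultures, 9 were higher and 2 lower in 50-cm-high medium (8 and 3 after rescaling without the 10 highest features), and every ratio lay between 0.889 and 1.11. Of all features, 52.6% were higher, and 63.4% of those above 20 FPKM, where 9 of the 11 lay. The median log2 ratio of the SRSF genes was 0.10. After quantile normalization it was 0.01, and so was that of all features. Their summed level was 1063 FPKM at 2 cm and 1129 FPKM at 50 cm. This is a ratio of 1.06, where the sum over all features above 1 FPKM had a ratio of 1.02. None passed 1.2-fold, where 15.0% of all features were higher and 16.9% lower past it. Above 20 FPKM these shares were 15.1% and 6.91%.

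SRSF1, the founding SR protein, which acts in both constitutive and alternative splicing, had the highest ratio of the family, with 67.3 FPKM at 2 cm and 74.5 FPKM at 50 cm (ratio 1.11). Its close relative SRSF9 had 147 and 158 FPKM (ratio 1.07). SRSF2, whose protein is a standard marker of nuclear speckles, had 154 and 166 FPKM (ratio 1.08). These 3 genes thus stood slightly higher in the 50-cm-high-medium culture, by amounts no greater than 1.11-fold.

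SRSF7 and SRSF3 encode related SR proteins that also help to export mRNA. SRSF7 was the most abundant SRSF transcript, at 178 FPKM at 2 cm and 194 FPKM at 50 cm (ratio 1.09). SRSF3 had 147 and 157 FPKM (ratio 1.07), so the pair kept almost the same proportion to each other, with a difference of -0.03 between their log2 ratios.

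SRSF4, SRSF5 and SRSF6 are SR proteins with a pair of RNA recognition motifs each, and their ratios differed in direction. SRSF6 had 107 FPKM at 2 cm and 117 FPKM at 50 cm (ratio 1.097). SRSF5 had 93.7 and 83.3 FPKM (ratio 0.889), the lowest ratio of the family. The level of SRSF6 was thus 1.14 times that of SRSF5 in the first culture and 1.41 times in the second. SRSF4, far less abundant, had 16.4 and 16.8 FPKM (ratio 1.02).

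SRSF10, a splicing repressor that is activated by dephosphorylation during heat shock, had 78.6 FPKM at 2 cm and 82.2 FPKM at 50 cm (ratio 1.05). SRSF12, its relative, was the least abundant SRSF transcript, with 5.51 and 4.96 FPKM (ratio 0.9001). SRSF11 had 69.1 and 75.1 FPKM (ratio 1.09). SRSF12 and SRSF5 were thus the only members of the family that were lower at 50 cm in the main setting.

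**Figure D2:**
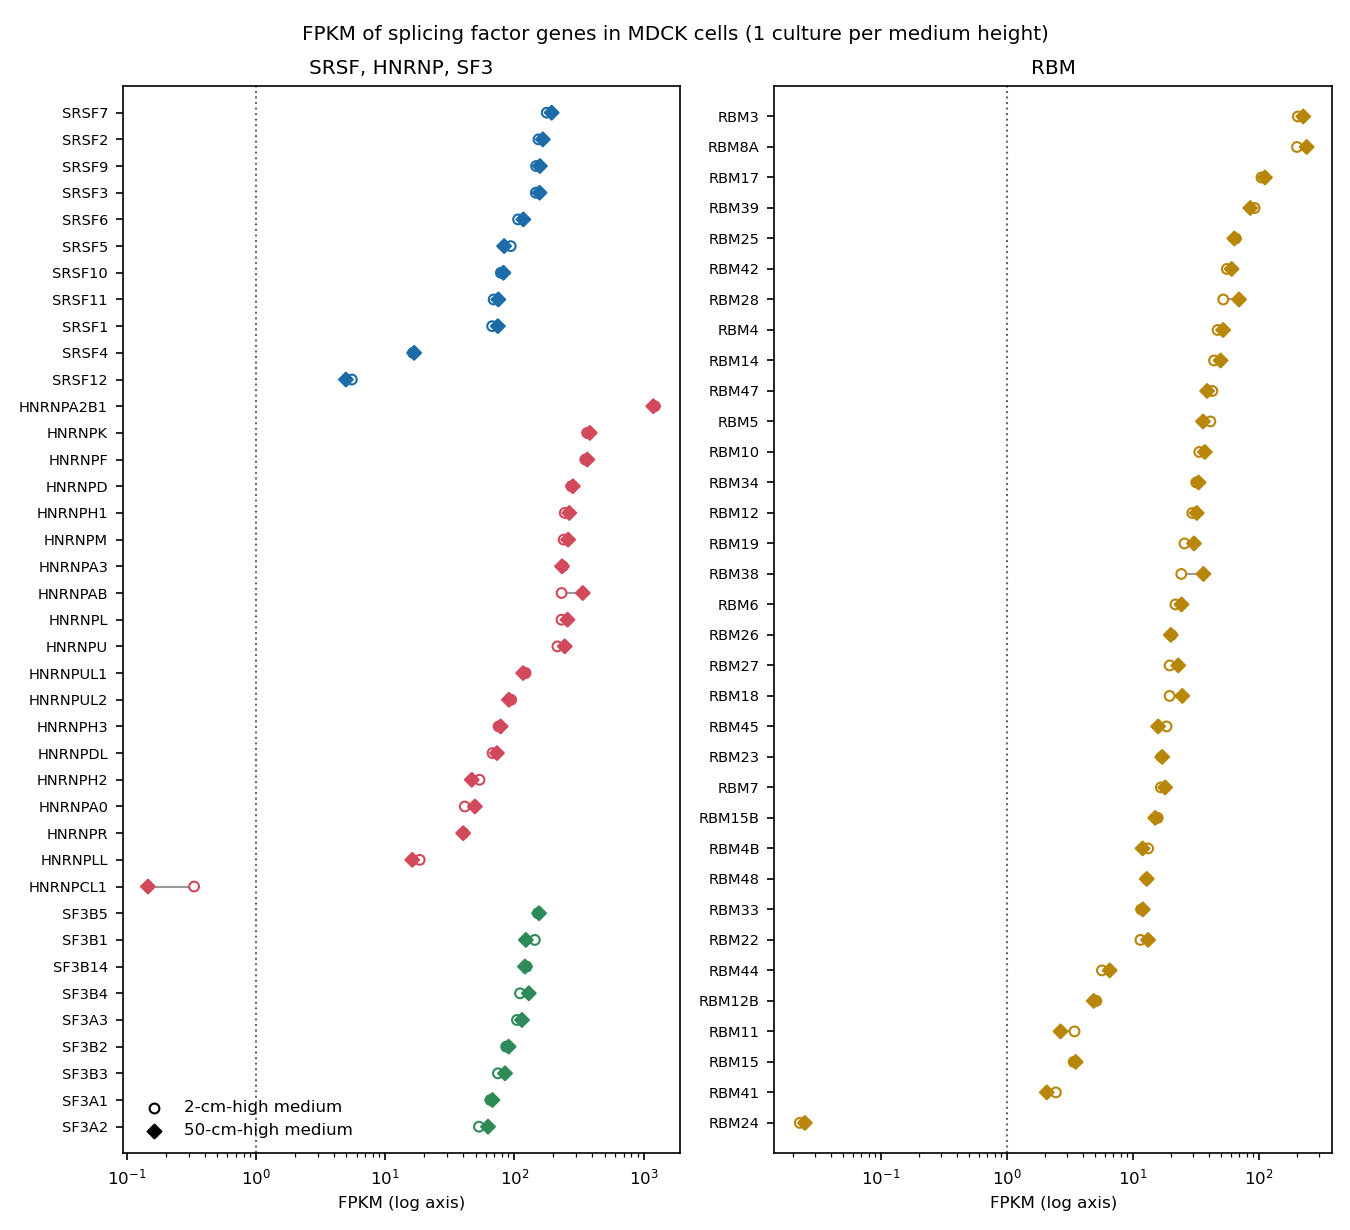
FPKM (log axis) of each member in the 2-cm-high-medium culture (open circles) and the 50-cm-high-medium culture (filled diamonds), 1 culture each, by family, with a dotted line at 1 FPKM. RBM20 and RBM46, listed at 0 in at least 1 culture, are left out; the symbols of most members nearly coincide, and HNRNPAB, RBM28, RBM38 and the barely detected HNRNPCL1 show visible gaps.

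HNRNP transcripts were the most abundant of the families, with a summed level of 4136 FPKM at 2 cm and 4338 FPKM at 50 cm over 18 members above 1 FPKM (ratio 1.05). Of these, 11 were higher and 7 lower, 1 lay past 1.2-fold and the median log2 ratio was 0.05. After quantile normalization the median was -0.01, with 7 higher and 10 lower, so the family has no direction that holds under every scaling. The member past 1.2-fold was HNRNPAB.

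HNRNPAB, which encodes an A/B-type hnRNP that binds RNA and also the CArG promoter element, had 232 FPKM at 2 cm and 338 FPKM at 50 cm. The ratio of 1.46 (0.54 on the log2 scale) was rank 298 from the top among 11057 features, and it stayed between 1.39 and 1.46 under the alternative settings. The middle 95% of its 500 neighbours in expression ran from -0.50 to 0.47 on the log2 scale. HNRNPAB took 5.61% of the summed HNRNP FPKM in the first culture and 7.80% in the second.

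The relatives of HNRNPAB did not share that ratio. HNRNPD, known as AUF1 for its binding of AU-rich elements in mRNAs marked for decay, had 276 FPKM at 2 cm and 284 FPKM at 50 cm (ratio 1.03). HNRNPDL, its paralog, had 67.8 and 73.2 FPKM (ratio 1.08). In 2-cm-high medium HNRNPAB stood at 0.840 times the level of HNRNPD, and in 50-cm-high medium at 1.19 times, so the order of the pair was exchanged. How the authors' counting divided reads among such paralogs is not stated.

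The other A-type genes lay within 1.2-fold. HNRNPA2B1, whose protein binds splicing silencers and sorts RNAs for transport, was the most abundant member of any family, with 1223 FPKM at 2 cm and 1190 FPKM at 50 cm (ratio 0.973). It made up 29.6% and 27.4% of the summed HNRNP FPKM. HNRNPA3 had 237 and 234 FPKM (ratio 0.985). HNRNPA0, the smallest contributor of this subgroup, had 41.3 and 49.4 FPKM (ratio 1.197, just inside the 1.2-fold line).

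The F and H genes encode proteins that bind runs of guanine. HNRNPF had 354 FPKM at 2 cm and 367 FPKM at 50 cm (ratio 1.04). HNRNPH1 had 246 and 266 FPKM (ratio 1.08), and HNRNPH3 had 75.5 and 78.3 FPKM (ratio 1.04). HNRNPH2, with 53.7 and 46.8 FPKM, had the lowest ratio among the HNRNP genes above 1 FPKM (0.871, close to 0.876 for HNRNPLL). HNRNPH1 was thus 4.57 times as abundant as HNRNPH2 in the first culture and 5.69 times in the second.

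The L pair, which bind CA-rich RNA, also had ratios on opposite sides of 1. HNRNPL had 232 FPKM at 2 cm and 258 FPKM at 50 cm (ratio 1.11). HNRNPLL, best known for regulating CD45 splicing in lymphocytes, had 18.5 and 16.2 FPKM (ratio 0.876). The log2 ratios differed by 0.34 in this pair and by 0.31 between HNRNPH1 and HNRNPH2. Over all features the middle 50% of log2 ratios ran from -0.17 to 0.17. In both pairs the more abundant gene was higher and the less abundant gene lower in 50-cm-high medium. This was not general among relatives. HNRNPH3, less abundant than HNRNPH1, was also higher. The less abundant gene was higher and the more abundant lower for HNRNPA0 and HNRNPA3, RBM6 and RBM5, RBM15 and RBM15B, and SF3B3 and SF3B1, among others.

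The remaining HNRNP genes above 1 FPKM were within 1.14-fold of level. HNRNPU, a nuclear scaffold protein that binds chromatin as well as RNA, had 215 FPKM at 2 cm and 245 FPKM at 50 cm (ratio 1.14). Its relatives HNRNPUL1, with 122 and 117 FPKM, and HNRNPUL2, with 94.3 and 90.7 FPKM, had ratios of 0.958 and 0.961. HNRNPK, a poly(C)-binding protein with KH domains, had 366 and 384 FPKM (ratio 1.05). HNRNPM had 241 and 261 FPKM (ratio 1.08), and HNRNPR had 40.3 and 40.1 FPKM (ratio 0.994). HNRNPCL1, named for its likeness to HNRNPC, was below the minimum, with 0.331 FPKM at 2 cm and 0.145 FPKM at 50 cm, and its ratio of 0.439 lay within 0.05% of the ratio that 2 reads against 5 reads give.

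**Figure D3:**
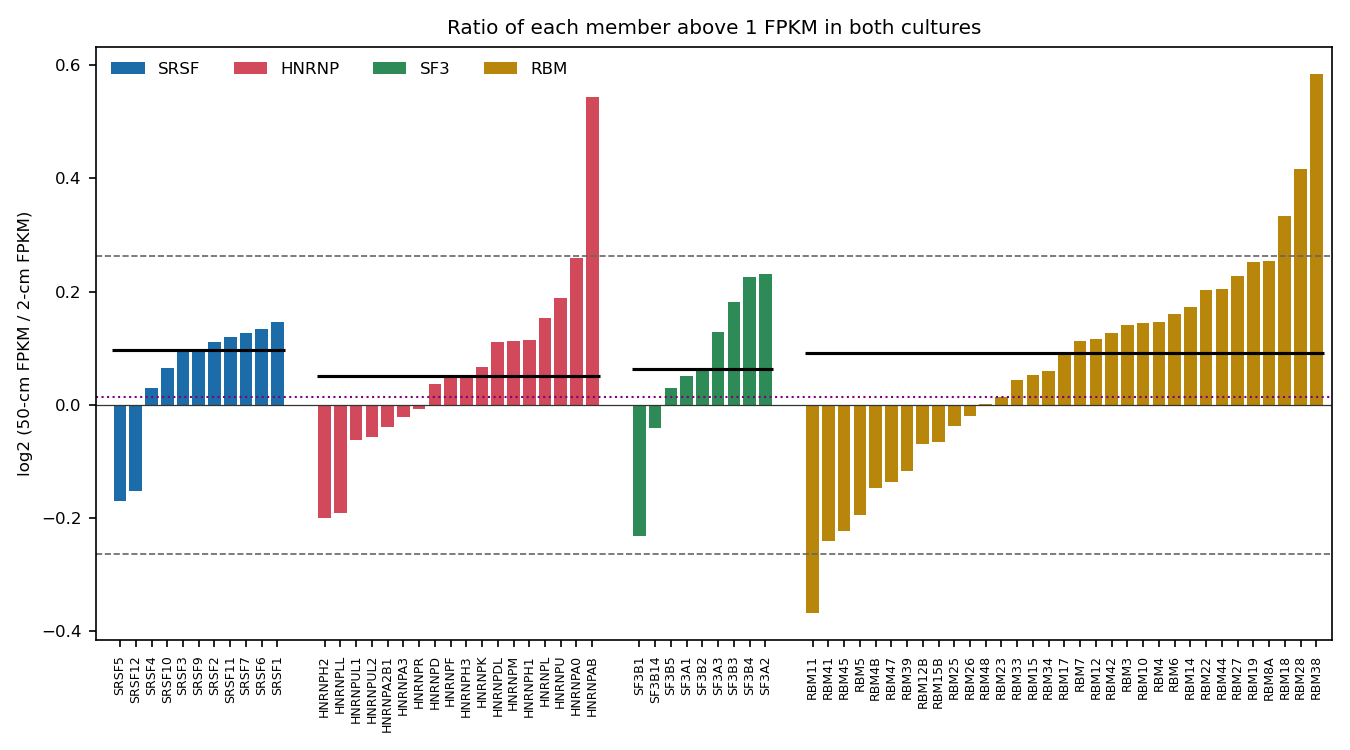
Log2 ratio of 50-cm over 2-cm FPKM for each of the 71 members above 1 FPKM in both cultures (1 culture each), ordered within family. Black lines are family medians, dashed lines mark 1.2-fold and the dotted line is the median of all features; HNRNPAB, RBM18, RBM28 and RBM38 lie above the upper line and RBM11 lies below the lower one.

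All 9 SF3 genes were above 1 FPKM, and 7 were higher and 2 lower in 50-cm-high medium. Their median log2 ratio was 0.06, and quantile normalization brought the split to 4 higher and 4 lower with the median gene level. The summed level was 915 FPKM at 2 cm and 948 FPKM at 50 cm. None passed 1.2-fold, and the ratios ran from 0.852 to 1.17.

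The 3 SF3A genes, whose products form the trimer that completes the mature U2 snRNP, were all higher, except that SF3A1 was level after quantile normalization. SF3A1 had 65.2 FPKM at 2 cm and 67.6 FPKM at 50 cm (ratio 1.04). SF3A3 had 105 and 114 FPKM (ratio 1.09), and SF3A2 had 53.2 and 62.5 FPKM (ratio 1.17). SF3A2 had the highest ratio of the SF3 genes.

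Among the SF3B genes, SF3B1 was the lowest. It encodes the scaffold that clamps the branch point helix and is a frequent target of mutation in myeloid neoplasia. SF3B1 had 144 FPKM at 2 cm and 123 FPKM at 50 cm (ratio 0.852), and it passed 1.2-fold on the low side only after quantile normalization and after rescaling without the 10 highest features. SF3B14, the small subunit next to the branch point adenosine, had 124 and 121 FPKM (ratio 0.972).

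The other SF3B genes were level or slightly higher. SF3B5 had 152 FPKM at 2 cm and 155 FPKM at 50 cm (ratio 1.02), and SF3B2 had 86.4 and 90.3 FPKM (ratio 1.04). SF3B3 had 74.6 and 84.6 FPKM (ratio 1.13), and SF3B4 had 111 and 129 FPKM (ratio 1.17). SF3B3, which packs against SF3B1 in the complex, stood at 0.518 times the level of SF3B1 in the first culture and 0.690 times in the second. Each single ratio was within 1.2-fold. On the log2 scale SF3B3 (0.18) lay inside the middle 50% of its neighbours in expression, which ran from -0.07 to 0.20. SF3B1 (-0.23) lay below the middle 50% of its neighbours, -0.04 to 0.20, and inside their middle 95%, -0.52 to 0.50. Whether the proportion of these transcripts differed beyond measurement error was not tested, with 1 culture per medium height.

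The RBM ratios spanned the widest range of the families, and this family also had the most genes above 1 FPKM. Its median level was the lowest, 21.8 FPKM at 2 cm where the other families had 93.7 to 223 FPKM. Of 36 listed, 33 were above 1 FPKM in both cultures, with 22 higher and 11 lower (19 and 14 after rescaling without the 10 highest features), a median log2 ratio of 0.09 and ratios from 0.775 to 1.499. Their summed level was 1315 FPKM at 2 cm and 1431 FPKM at 50 cm (ratio 1.09). Of the 33, 3 were higher and 1 lower past 1.2-fold, beside 15.0% and 16.9% of all features. The share higher was 66.7% for these genes, 52.6% for all features and 63.4% for features above 20 FPKM. The 15 splicing-linked RBM genes and the 18 others above the minimum had alike medians, 0.09 on the log2 scale in each case.

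RBM38, an RNA-binding protein that stabilises the mRNA of the cell cycle inhibitor CDKN1A and is itself a p53 target, had the highest ratio of all members. It had 24.2 FPKM at 2 cm and 36.3 FPKM at 50 cm, a ratio of 1.499 (0.58 on the log2 scale) and rank 238 from the top among 11057 features. The middle 95% of its 500 neighbours in expression ran from -0.57 to 0.56. Under the alternative settings its ratio lay between 1.447 and 1.499.

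Nucleolar RBM proteins take part in ribosome assembly. RBM28 had 52.2 FPKM at 2 cm and 69.7 FPKM at 50 cm (ratio 1.33), and this lay within the middle 95% of its neighbours, -0.51 to 0.52 on the log2 scale. RBM19 had 25.7 and 30.6 FPKM (ratio 1.19), and RBM34 had 31.9 and 33.2 FPKM (ratio 1.04). All 3 were higher in 50-cm-high medium, and only RBM28 was past 1.2-fold.

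RBM18, a little-studied protein with an RNA recognition motif, had 19.6 FPKM at 2 cm and 24.7 FPKM at 50 cm (ratio 1.26). RBM8A, known as Y14 and a core component of the exon junction complex laid down by splicing, had 201 and 240 FPKM (ratio 1.193, just inside 1.2-fold). RBM3, a protein induced by mild cold, had 204 and 225 FPKM (ratio 1.103). RBM3 and RBM8A were the most abundant RBM transcripts in both cultures, and the order of the pair was exchanged between them.

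RBM17, RBM22, RBM25, RBM39 and RBM42 encode proteins found in or beside the spliceosome. RBM17, which acts at the 3′ splice site, had 105 FPKM at 2 cm and 112 FPKM at 50 cm (ratio 1.07). RBM22, which contacts the active site RNA, had 11.5 and 13.2 FPKM (ratio 1.151), and RBM42 had 55.8 and 60.9 FPKM (ratio 1.09). RBM39, a U2AF-like factor degraded in the presence of aryl sulfonamides, had 92.7 and 85.5 FPKM (ratio 0.922), and RBM25 had 65.5 and 63.9 FPKM (ratio 0.975). These 5 genes were split between both directions, and none lay past 1.2-fold.

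RBM5, RBM6 and RBM10 are related regulators of exon choice. RBM5 had 41.3 FPKM at 2 cm and 36.1 FPKM at 50 cm (ratio 0.874). RBM6 had 21.8 and 24.3 FPKM (ratio 1.12), and RBM10 had 33.7 and 37.3 FPKM (ratio 1.11). RBM10 stood at 0.817 times the level of RBM5 in the first culture and 1.03 times in the second.

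Other related pairs also differed from each other. RBM4, which regulates alternative exons, had 47.1 FPKM at 2 cm and 52.1 FPKM at 50 cm (ratio 1.11), while its near-identical paralog RBM4B had 13.2 and 11.9 FPKM (ratio 0.904). RBM27 had 19.6 and 22.9 FPKM (ratio 1.17), while RBM26 had 20.3 and 19.99 FPKM (ratio 0.987), both being linked to nuclear RNA decay. RBM12 had 29.7 and 32.2 FPKM (ratio 1.08), and RBM12B had 5.13 and 4.89 FPKM (ratio 0.953). RBM15, which recruits the m6A methyltransferase complex, had 3.39 and 3.52 FPKM (ratio 1.04), and RBM15B had 15.7 and 15.0 FPKM (ratio 0.956). Reads shared between such paralogs may be divided in a manner not stated in the sources used here.

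The lowest RBM ratios were those of RBM11 and RBM41, both weakly expressed. RBM11, a splicing regulator described mainly in neurons and germ cells, had 3.44 FPKM at 2 cm and 2.67 FPKM at 50 cm (ratio 0.775). On the log2 scale this was -0.37, inside the middle 50% of its 500 neighbours in expression, which ran from -0.41 to 0.13. RBM41 had 2.45 and 2.07 FPKM (ratio 0.847), and RBM45, a protein found in neuronal inclusions, had 18.5 and 15.9 FPKM (ratio 0.857). RBM47, an epithelial RNA-binding protein that takes part in APOBEC1-mediated RNA editing, had 42.8 and 38.9 FPKM (ratio 0.909).

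Of the other RBM genes above 1 FPKM, RBM7, a subunit of the nuclear exosome targeting complex, had 16.7 FPKM at 2 cm and 18.04 FPKM at 50 cm (ratio 1.08). RBM14, a paraspeckle protein and coactivator, had 44.1 and 49.7 FPKM (ratio 1.13). RBM44 had 5.68 and 6.55 FPKM (ratio 1.153), RBM33 had 11.6 and 12.01 FPKM (ratio 1.03), RBM23 had 16.9 and 17.1 FPKM (ratio 1.01) and RBM48 had 12.87 and 12.89 FPKM (ratio 1.001). RBM24, which is known from heart and skeletal muscle, had 0.0227 and 0.0249 FPKM, a ratio of 1.098 that 1 read in each culture also gives. RBM20, the titin splicing factor of heart, was listed at 0 in 2-cm-high medium and at 0.0227 FPKM in 50-cm-high medium, and RBM46, known from germ cells, was listed at 0 in both. A listed 0 may be a failed estimate, since SON, a widely expressed speckle protein, was also listed at 0 in both cultures.

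The rest of the splicing machinery was described with 8 lists holding 122 genes, of which 113 were above 1 FPKM in both cultures. Of these, 78 were higher and 35 lower (69.0% higher, where 52.6% of all features were). The median log2 ratio was 0.06, beside 0.01 over all features, and 0 reached 2-fold, where 1.67% of all features passed it. After quantile normalization 63 were higher, 48 lower and 2 level, where 52.0% of all features were higher. After rescaling without the 10 highest features 62 were higher and 51 lower, where 43.8% of all features were higher. Past 1.2-fold, 7 were higher and 3 lower, beside the 15.0% and 16.9% of all features. After that rescaling, 1 was higher past 1.2-fold (CLK4) and 5 were lower, where 11.1% of all features were higher and 20.9% lower past it. The background for the list counts below is 52.6% of all features higher, or 63.4% of features above 20 FPKM.

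Among the U1 and U2 snRNP proteins, 4 of 5 were higher (median log2 ratio 0.12, or 3 of 5 and 0.04 after quantile normalization), with SNRPA1, a U2 protein, at 19.98 FPKM at 2 cm and 24.7 FPKM at 50 cm (ratio 1.24). Of the 8 Sm ring proteins, the shared core of the snRNPs, 5 were higher (median 0.03; 3 of 8 and median -0.02 after rescaling without the 10 highest features) and none passed 1.2-fold, with SNRPB at a ratio of 1.16 the most extreme. All 8 genes of branch point and 3′ splice site recognition were higher (median 0.10), of which 6 remained so after quantile normalization. All 8 were above 20 FPKM, where 63.4% of features were higher and the median log2 ratio was 0.06. The RNA helicase gene DHX15 had the highest ratio of them, 1.19. Of the 25 tri-snRNP and PRP19 complex genes, 16 were higher (median 0.06, or 0.01 after rescaling without the 10 highest features), and PRPF4, SNRNP27 and PRPF6 lay past 1.2-fold at 1.24, 1.23 and 1.21.

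The SR protein kinases and importers bear on the SRSF proteins directly, since phosphorylation of the arginine-serine tail directs their location and activity. Of 10 genes, 7 were higher (median log2 ratio 0.07, or 6 higher and 0.04 after quantile normalization). CLK4, with 6.55 FPKM at 2 cm and 8.61 FPKM at 50 cm (ratio 1.31), was the only gene of that list past 1.2-fold. For SRPK1, a cytoplasmic SR protein kinase, the values were 39.3 and 42.5 FPKM (ratio 1.08). Among 12 SR-like proteins above 1 FPKM, 6 were higher and 6 lower (median -0.01, or -0.07 with 8 lower after quantile normalization), with PNISR lowest at 24.9 and 20.2 FPKM (ratio 0.811).

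Of 29 other regulators of alternative splicing above 1 FPKM, 19 were higher and 10 lower (median log2 ratio 0.10, with 16 higher after quantile normalization). TARDBP had 43.5 FPKM at 2 cm and 52.5 FPKM at 50 cm (ratio 1.21), and KHSRP had 27.0 and 32.5 FPKM (ratio 1.204). PTBP2, the neuronal relative of PTBP1, had 8.39 and 6.31 FPKM (ratio 0.753). CIRBP, the cold-inducible relative of RBM3, had 76.6 and 60.5 FPKM (ratio 0.790), so RBM3 was 2.67 times as abundant as CIRBP in the first culture and 3.72 times in the second. ESRP1 and ESRP2, epithelial splicing regulators singled out here after their values had been seen, had ratios of 1.07 and 0.907. Of the 16 exon junction complex and decay genes, 13 were higher (median 0.08, with 9 higher after rescaling without the 10 highest features) and none passed 1.2-fold, the highest being SMG5 at 1.198.

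**Figure D4:**
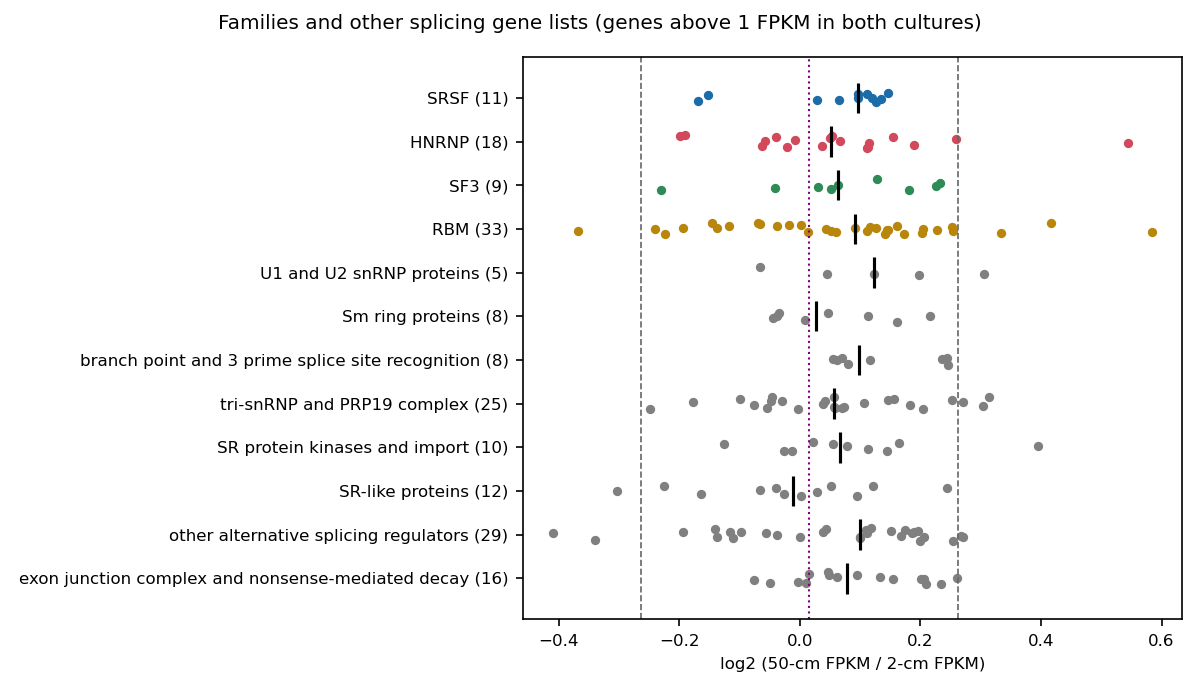
Log2 ratio of 50-cm over 2-cm FPKM for every gene above 1 FPKM in both cultures in the 4 families (coloured) and in 8 lists of other splicing genes (grey), with the number of genes in brackets, black bars at the medians, dashed lines at 1.2-fold and a dotted line at the median of all features. The medians lie between -0.01 and 0.12, and few points fall outside the dashed lines.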

How the data were processed

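Stranded mRNA libraries from MDCK cells, 1 per medium height, were sequenced by the authors as single-end reads, mapped to CanFam3.1 with TopHat2 2.0.13, Bowtie2 2.2.3 and SAMtools 0.1.19, and the deposited FPKM values were calculated with Cuffnorm 2.2.1. The annotation and the scaling method are not given in the sources used here, and FPKM follows the composition of each library.

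The FPKM at 50 cm was divided by that at 2 cm, with no pseudocount, for features above 1 FPKM in each culture, with lines at 1.2-fold and, after the study, 2-fold. No test was possible with 1 sample per group. The members and lists were chosen with earlier results of these data known. Named genes were all SRSF, HNRNP and SF3 members, RBM members past 1.2-fold, the 3 most abundant and the 5 highest and 5 lowest ratios, members listed at 0, and list genes past 1.2-fold or most extreme; other RBM members, SRPK1, SON and the ESRP genes were added after their values were seen. Not every most extreme list gene is named. Of 75 members, 72 matched a RefSeq symbol of UU_Cfam_GSD_1.0; no coordinates are given because that build differs. Alternatives were pseudocounts, other FPKM minima, recentring, quantile normalization and rescaling. The scripts were tested on simulated data. The work was done in Python 3.11.15 (numpy 2.4.6, pandas 2.3.3), and figures were drawn with matplotlib 3.10.9.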

Additional observations from a re-analysis of the deposited data

How the results depend on the processing

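The median log2 ratio of all members stayed between 0.02 and 0.11 under the alternatives, that of SRSF between 0.01 and 0.11, that of SF3 between 0 and 0.06 and that of RBM between 0.04 and 0.14. The HNRNP median turned to -0.0138 after quantile normalization. The count past 1.2-fold on the high side stayed at 3 to 5, where the share of all features ran from 11.1% to 17.6%. On the low side the count was 1 in the main setting, and 2 above 0 or above 0.1 FPKM and after quantile normalization. It was 4 after rescaling to a fixed sum without the 10 highest features. It was 0 above 5 FPKM or, added after the values were seen, above 20 FPKM. The low-side share of all features also moved with the setting. It was 16.9% in the main setting, 24.1% above 0 FPKM, 22.5% above 0.1 FPKM and 14.6% after quantile normalization. It was 20.9% after the rescaling, 11.1% above 5 FPKM and 6.91% above 20 FPKM. The lower minima admitted HNRNPCL1, and the higher ones removed RBM11. After quantile normalization the lower genes were HNRNPH2 and SF3B1 and no longer RBM11. The count past 2-fold was 0 in the main setting and 1 (HNRNPCL1) above 0 or above 0.1 FPKM. Of all features, 1.67% passed 2-fold in the main setting and 5.50% above 0.1 FPKM. Of 71 members, 59 kept the direction of their ratio under every alternative run and 12 did not, among them HNRNPK, HNRNPF, HNRNPD, SF3B2, SF3B5 and SRSF4, each within 1.05-fold in the main setting. Recentring and rescaling move every ratio alike, so they turn ratios near 1 by construction, and 3 of the 12 (RBM33, RBM48 and SRSF4) changed direction under those alone. Of the 113 other splicing genes, 7 lay past 1.2-fold on the high side in the main setting and 4 after recentring. After quantile normalization 5 did, and 1 did after rescaling without the 10 highest features. The shares of all features in these settings were 15.0%, 13.8%, 16.0% and 11.1%. No paired analysis was possible because each group has 1 sample, and for the same reason no replicate could be left out. Read numbers are unknown, so the precision of values such as those of RBM11 and RBM41 cannot be stated.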

Other observations

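Among the members, RefSeq places RBM5 beside RBM6 and RBM4B beside RBM14 as neighbouring protein-coding genes of the dog genome, in the assembly UU_Cfam_GSD_1.0. RBM4 matched no symbol there, so its place relative to RBM4B and RBM14 is not known here. The neighbours had ratios on opposite sides of 1 in both cases, with RBM5 at 0.874 and RBM6 at 1.12, and RBM4B at 0.904 and RBM14 at 1.13 (50-cm over 2-cm FPKM, 1 culture each). Whether the authors' counting used the strand is not stated.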
